A study of Homo sapiens with 6 samples.

Results

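The 10 genes examined belong to the YAP-TEAD axis and were measured in HEY cells, an established human ovarian cancer line. They were chosen by name, for their place in the pathway, with earlier results of these data known. The coactivators are YAP1 and WWTR1 (the gene of TAZ), and the DNA-binding partners are TEAD1 and TEAD4. The secreted targets are CCN1 (CYR61) and CCN2 (CTGF), and the nuclear target is ANKRD1. AMOTL2, LATS2 and AJUBA are targets of the pathway and also act on it. All 10 of 10 had a row among the 32679 genes of the deposited table. The table gave FPKM, fragments scaled to transcript length and to the mapped fragments of the library, for 6 samples of poly(A) RNA. There were 3 samples of shNC, cells with a control hairpin and no drug treatment, and 3 of shPQBP1, cells with a hairpin against PQBP1 that received doxycycline (Dox) at 1 µg/ml, all taken at day 3. Hairpins were delivered by lentivirus into stably selected cells, and the labels do not say how many hairpins were used. Since only the shPQBP1 samples received doxycycline, the hairpin and the drug cannot be told apart in any difference below. PQBP1, a nuclear protein of the splicing machinery, had an FPKM of 7.18, 6.67 and 6.93 in shNC replicates 1 to 3 and of 1.68, 1.72 and 1.44 in shPQBP1, a log2 fold change of -2.04 (SE 0.10, limma adjusted p = 0.00154).

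YAP1 and TAZ have no DNA-binding domain of their own and reach promoters and enhancers through the TEAD proteins, which recognise a short motif. The Hippo kinases MST1/2 activate the kinases LATS1/2, which phosphorylate both coactivators and so keep them out of the nucleus. Angiomotins bind the coactivators and hold them at junctions and in the cytoplasm. Several targets, LATS2 and AMOTL2 among them, feed back to restrain YAP1. In epithelial tumours the pathway is known for its link to cell density, stiffness and growth.

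The TEAD motif, searched as GGAATG and as its reverse complement CATTCC, is shown in the promoters of the members whose levels carry the comparison below. Promoter windows of 300 bases (250 before and 50 after the start, RefSeq, GRCh38.p14) were given for 7 of the 10 members. No window was given for CCN1, TEAD1 and TEAD4, so the motif was not searched in those genes. These 7 genes had 10 windows, of which 6 held the motif, and 6 of the 7 genes held it in at least 1 window. Of all 35116 such windows, 14.0% held it at least once and 0.125% at least 3 times. A match describes letters in the window, not a bound site. The motif is in capitals, and each sequence reads 5′ to 3′ on the strand of its gene.
CCN2 (chr6:131951323-131951622, minus strand): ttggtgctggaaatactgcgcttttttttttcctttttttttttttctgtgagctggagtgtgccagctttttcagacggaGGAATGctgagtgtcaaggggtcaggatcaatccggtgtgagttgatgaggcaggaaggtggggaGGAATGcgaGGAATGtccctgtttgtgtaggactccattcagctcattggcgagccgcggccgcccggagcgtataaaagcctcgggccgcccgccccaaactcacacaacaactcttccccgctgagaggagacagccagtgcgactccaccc
ANKRD1 (chr10:90921038-90921337, minus strand): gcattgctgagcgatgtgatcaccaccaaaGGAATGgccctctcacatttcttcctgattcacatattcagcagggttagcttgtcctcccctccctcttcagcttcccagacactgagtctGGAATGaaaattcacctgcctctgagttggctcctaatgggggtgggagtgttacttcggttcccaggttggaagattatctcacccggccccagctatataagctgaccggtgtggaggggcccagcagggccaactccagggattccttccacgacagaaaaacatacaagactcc
AMOTL2 (chr3:134374398-134374697, minus strand): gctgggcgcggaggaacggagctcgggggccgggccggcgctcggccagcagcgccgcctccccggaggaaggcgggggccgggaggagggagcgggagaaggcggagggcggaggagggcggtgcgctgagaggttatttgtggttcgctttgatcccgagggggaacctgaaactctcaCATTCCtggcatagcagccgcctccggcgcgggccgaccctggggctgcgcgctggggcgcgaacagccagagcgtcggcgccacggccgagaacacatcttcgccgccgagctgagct
YAP1 (chr11:102110197-102110496, plus strand): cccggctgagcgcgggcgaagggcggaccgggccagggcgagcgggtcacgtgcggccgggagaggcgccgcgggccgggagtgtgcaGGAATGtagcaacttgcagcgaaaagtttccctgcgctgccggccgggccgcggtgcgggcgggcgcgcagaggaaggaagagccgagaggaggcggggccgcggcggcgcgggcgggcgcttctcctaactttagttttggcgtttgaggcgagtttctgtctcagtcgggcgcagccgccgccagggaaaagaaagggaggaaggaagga
The CCN2 window held 3 copies, starting 169, 104 and 95 bases before the start site, and the last pair lay a few bases apart. ANKRD1 had 2 copies, 220 and 128 bases before its start. AMOTL2 had 1 copy on the opposite strand in the window shown and 0 in its other window (chr3:134375368-134375667). YAP1 itself had 1 copy. LATS2 had 1 copy just after its start, AJUBA had 1 copy in 1 of its 2 windows, and WWTR1 had 0 in both of its windows.

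**Figure D1:**
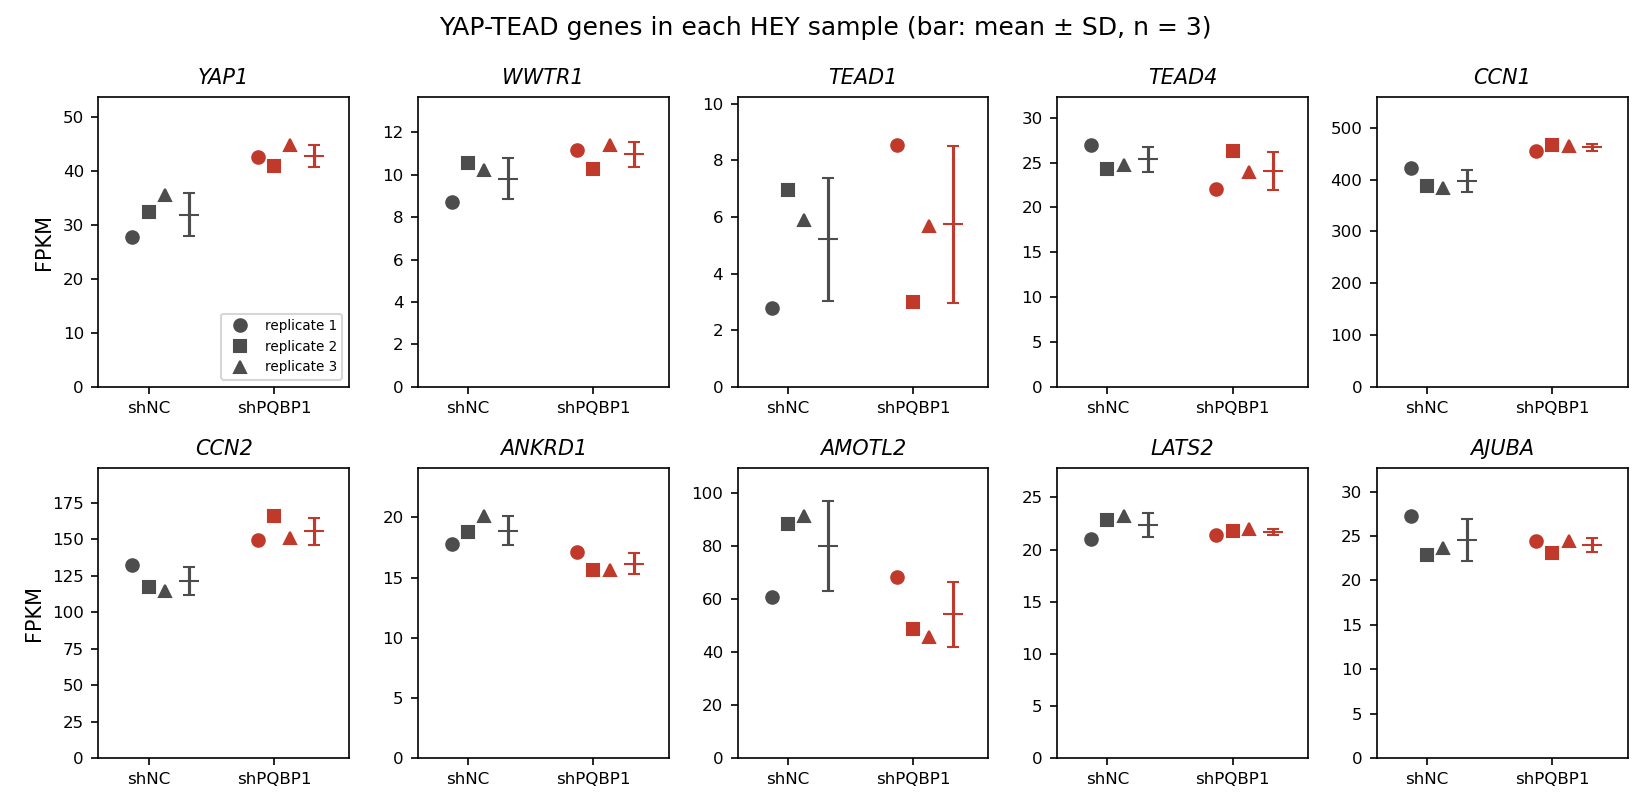
FPKM of the 10 YAP-TEAD genes (vertical axes from 0) in 3 shNC (grey) and 3 shPQBP1 (red) samples of HEY cells, with symbols for the replicate numbers and mean ± SD at the right of each group. YAP1, CCN1 and CCN2 are higher in all 3 shPQBP1 samples, ANKRD1 is lower in all 3, and TEAD1 spans 2.77 to 8.55 FPKM with both groups over the same range.

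The question put to the data was whether the level of these genes differed between PQBP1-depleted and control cells. YAP1, CCN1 and CCN2 were higher in every shPQBP1 sample than in any shNC sample, by ratios of 1.35, 1.16 and 1.28. ANKRD1 was lower in every shPQBP1 sample, at 0.856 of the shNC level, so the targets did not share 1 direction. AMOTL2 had 0.678 of the shNC level with overlapping groups, and WWTR1, TEAD1, TEAD4, LATS2 and AJUBA overlapped as well. By limma on log2(FPKM + 0.1), 0 of the 10 members passed an adjusted p of 0.05, where 2.91% of the 11413 tested genes did (1.73% with a higher level). At an unadjusted p under 0.05 there were 5 of 10 members, against 23.6% of all tested genes: 3 higher (YAP1, CCN1, CCN2), against 11.9%, and 2 lower (ANKRD1, AMOTL2), against 11.7%. Both lower calls were lost, leaving 3 members, when shNC replicate 2 or 3 or shPQBP1 replicate 2 or 3 was left out. In those settings 870 to 1629 of the 11413 tested genes were higher and 932 to 1311 lower at an unadjusted p under 0.05. The groups did not overlap for 3 members with higher and 1 with lower shPQBP1 levels, and this held for 17.3% and 17.1% of tested genes. No member passed the threshold stated in the study's methods, a fold over 2 with p under 0.05, which 1.52% of tested genes passed. The median log2 fold change was 0.04 over the members and 0.02 over all tested genes.

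The number of members past the adjusted threshold depended on how composition was treated. Across 11385 tested genes the log2 fold change fell with the GC content of the transcript (Spearman correlation -0.459, a description across genes, which are not independent). After correction of each sample for its dependence on GC content and length, 4 members passed an adjusted p of 0.05: YAP1, CCN1 and CCN2 higher and ANKRD1 lower. Over all tested genes that share was 8.84% under the same correction (4.30% higher and 4.54% lower). Without shNC replicate 1, the sample with the lowest correlations with the others (r = 0.926 to 0.955), 2 members passed, CCN1 and CCN2, and 4.07% of all tested genes did. The directions of these 4 genes held under all 16 alternatives, but most of these could not reverse them. Since the groups of these genes do not overlap, leaving out 1 sample or changing the pseudocount keeps the sign. The filter, variance trend and replicate block leave the fold change as it was. Only the changes of scaling and the GC and length correction could have turned a direction.

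YAP1 (ENSG00000137693, chr11:102110447-102233424, plus strand, 9 exons in the canonical transcript) is the main effector of the Hippo pathway. Its level was 27.67, 32.29 and 35.54 FPKM in shNC replicates 1 to 3 and 42.49, 40.79 and 44.76 FPKM in shPQBP1. The groups did not overlap, and the shNC samples were the more spread. The means were 31.8 ± 3.95 and 42.7 ± 1.99 FPKM (SD, n = 3), a log2 fold change of 0.43 (SE 0.11, 95% interval 0.17 to 0.69, limma adjusted p = 0.0928). After the GC and length correction the log2 fold change was 0.30, with an adjusted p of 0.0398, and over all alternatives the adjusted p ran from 0.0398 to 0.271. A long non-coding gene on the opposite strand of YAP1, ENSG00000277459, had a mean of 1.76 FPKM, and the strandedness of the libraries was not given in the sources used here.

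WWTR1 (ENSG00000018408, chr3:149517235-149736714, minus strand, 7 exons) encodes TAZ, the paralog of YAP1. It was measured at 8.70, 10.54 and 10.22 FPKM in shNC and at 11.19, 10.29 and 11.41 FPKM in shPQBP1. shPQBP1 replicate 2 lay below shNC replicate 2, and the log2 fold change was 0.16 (SE 0.10, 95% interval -0.09 to 0.41, limma adjusted p = 0.36). With the composition trend removed it was -0.01, so WWTR1 had no stable direction. The ratio of WWTR1 to YAP1 was 0.314, 0.326 and 0.288 in shNC and 0.263, 0.252 and 0.255 in shPQBP1, with no overlap. The log2 ratio differed by -0.27 (two-sided exact permutation p = 0.1, the smallest that 3 against 3 allows, and 0.15 adjusted over 3 ratios). FPKM of YAP1 and WWTR1 together came to 36.4, 42.8 and 45.8 in shNC and 53.7, 51.1 and 56.2 in shPQBP1 (exact permutation p = 0.1).

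TEAD1 (ENSG00000187079, chr11:12674421-12944737, plus strand, 13 exons), a DNA-binding partner of both coactivators, was the most variable member. Its level was 2.77, 6.96 and 5.89 FPKM in shNC and 8.55, 3.00 and 5.69 FPKM in shPQBP1. Each group had 1 low sample, shNC replicate 1 and shPQBP1 replicate 2, and the highest and lowest values of all lay in different groups. The within-group SD was 0.72 on the log2 scale, at the 96.5th percentile of tested genes, whose median was 0.17. The log2 fold change of 0.12 (SE 0.48, limma adjusted p = 0.892) had a 95% interval of -1.03 to 1.27, a ratio of 0.488 to 2.41.

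TEAD4 (ENSG00000197905, chr12:2959330-3040676, plus strand, 13 exons) was the most abundant of the 4 TEAD genes. FPKM in shNC was 26.97, 24.33 and 24.75 and in shPQBP1 22, 26.28 and 23.96. The groups overlapped, with a log2 fold change of -0.08 (SE 0.09, 95% interval -0.30 to 0.15, limma adjusted p = 0.624) that became 0.08 with the composition trend removed. TEAD4 stood highest within its group where TEAD1 stood lowest, in shNC replicate 1 and in shPQBP1 replicate 2. The summed FPKM of TEAD1 to TEAD4 was 38.5, 38.3 and 37.8 in shNC and 38.1, 36.9 and 36.4 in shPQBP1, and TEAD4 made up 57.8% to 71.2% of it in the 6 samples. That sum varied far less from sample to sample than TEAD1 alone, which made up 7.2% to 22.5% of it. A link between the levels of TEAD1 and TEAD4 was not tested. For the difference of the sum between the groups the exact permutation p was 0.2. TEAD1 to TEAD4 as a ratio ran from 0.103 to 0.286 in shNC and from 0.114 to 0.389 in shPQBP1 (exact permutation p = 0.8).

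CCN1 (ENSG00000142871, chr1:85580761-85584589, plus strand, 5 exons), a secreted matricellular protein and a classic YAP target, had the highest level of the members. It was measured at 422.59, 387.68 and 383.75 FPKM in shNC and at 454.78, 467.18 and 464.31 FPKM in shPQBP1. Every shPQBP1 sample was above every shNC sample, and the shPQBP1 samples were close together. The means of 398 ± 21.4 and 462 ± 6.49 FPKM (SD, n = 3) gave a log2 fold change of 0.22 (SE 0.06, 95% interval 0.07 to 0.37, limma adjusted p = 0.116).

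CCN2 (ENSG00000118523, chr6:131948176-131951372, minus strand, 5 exons), the connective tissue growth factor, carries the 3 motif copies shown above. Samples gave 132.74, 117.14 and 114.61 FPKM in shNC and 149.61, 166.01 and 150.95 FPKM in shPQBP1. The order of the samples was like that of CCN1, with shNC replicate 1 highest in its group and shPQBP1 replicate 2 highest of all. From 121 ± 9.82 to 156 ± 9.11 FPKM (SD, n = 3), the log2 fold change was 0.36 (SE 0.08, 95% interval 0.15 to 0.56, limma adjusted p = 0.0818). Adjusted p for CCN2 ran from 0.0122, with the composition trend removed, to 0.273 over the alternatives, and for CCN1 from 0.0205 to 0.352. The ratio of CCN1 to CCN2 was 3.18, 3.31 and 3.35 in shNC and 3.04, 2.81 and 3.08 in shPQBP1, lower in all 3 (exact permutation p = 0.1, 0.15 adjusted over 3 ratios).

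ANKRD1 (ENSG00000148677, chr10:90912096-90921087, minus strand, 9 exons) encodes an ankyrin repeat protein of muscle and nucleus that is widely read as a YAP target. It was measured at 17.75, 18.83 and 20.11 FPKM in shNC and at 17.15, 15.65 and 15.65 FPKM in shPQBP1. All shPQBP1 samples were lower, the nearest pair being shNC replicate 1 and shPQBP1 replicate 1. Means were 18.9 ± 1.18 and 16.1 ± 0.866 FPKM (SD, n = 3), a log2 fold change of -0.22 (SE 0.08, 95% interval -0.43 to -0.02, limma adjusted p = 0.181). ANKRD1 was thus opposite in direction to CCN1 and CCN2, and with the composition trend removed it was at -0.36 (adjusted p = 0.0266, range over alternatives 0.0266 to 0.397).

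AMOTL2 (ENSG00000114019, chr3:134355347-134375479, minus strand, 10 exons), an angiomotin that binds YAP1 and is itself induced by it, had the largest fold change by size and a wide spread. It was measured at 60.67, 88.43 and 91.42 FPKM in shNC and at 68.41, 48.81 and 45.67 FPKM in shPQBP1. Replicate 1 of each group stood apart from its other two samples and overlapped with the other group. The means of 80.2 ± 17.0 and 54.3 ± 12.3 FPKM (SD, n = 3) gave a log2 fold change of -0.56 (SE 0.22, 95% interval -1.09 to -0.03, limma adjusted p = 0.191). AMOTL2 did not pass in any alternative, with an adjusted p of 0.0938 to 0.412.

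LATS2 (ENSG00000150457, chr13:20973036-21061586, minus strand, 8 exons), the kinase that phosphorylates YAP1 and TAZ, was measured at 21.05, 22.79 and 23.21 FPKM in shNC and at 21.41, 21.79 and 21.98 FPKM in shPQBP1. The shPQBP1 samples lay within the shNC range. The log2 fold change was -0.04 (SE 0.07, limma adjusted p = 0.75), and its 95% interval of -0.21 to 0.14 is the narrowest bound on a difference among the members whose groups overlapped.

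AJUBA (ENSG00000129474, chr14:22971177-22982551, minus strand, 8 exons), a LIM protein that restrains LATS kinases, was measured at 27.23, 22.85 and 23.62 FPKM in shNC and at 24.38, 23.05 and 24.48 FPKM in shPQBP1. Again the shPQBP1 samples lay within the shNC range. The log2 fold change was -0.03 (SE 0.09, 95% interval -0.25 to 0.19, limma adjusted p = 0.841).

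**Figure D2:**
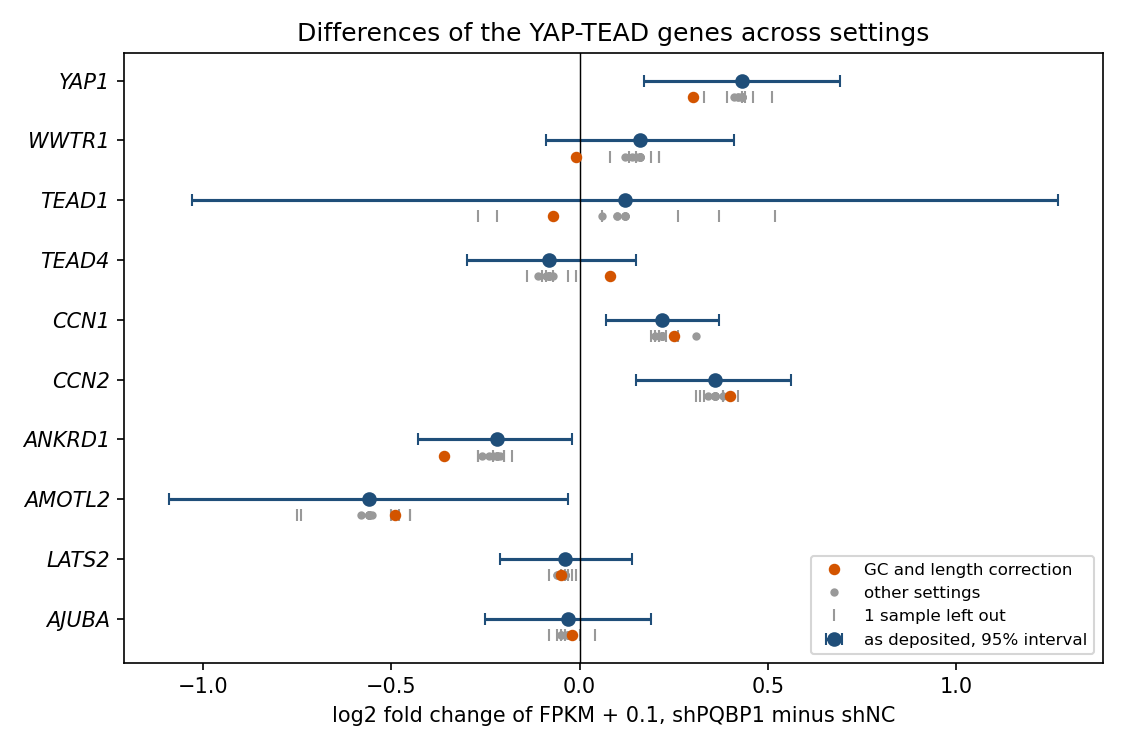
Log2 fold change (shPQBP1 minus shNC, horizontal axis, on FPKM + 0.1) of each member as deposited, with its 95% interval (blue), and under the alternatives below it (orange for the GC and length correction, grey dots for other settings, grey ticks for 1 sample left out). YAP1, CCN1 and CCN2 stay above 0 and ANKRD1 and AMOTL2 below 0 in all of them, while TEAD1 runs from -0.27 to 0.52.

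FPKM is per length, so the levels of the members were set side by side as deposited. The order is not corrected for GC content, which ran from 42.1% in ANKRD1 to 60.4% in TEAD4. In shNC the order was CCN1, CCN2, AMOTL2, YAP1, TEAD4, AJUBA, LATS2, ANKRD1, WWTR1 and TEAD1, from 398 down to 5.21 FPKM. The ranges of neighbours in that order overlapped only between TEAD4 and AJUBA and between AJUBA and LATS2. The order of the means in shPQBP1 was the same, from 462 to 5.75 FPKM, and only TEAD4 and AJUBA overlapped.

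Other YAP/TAZ targets, 17 genes of a published signature, also held genes of both directions. Of the 16 that could be tested, 6 had a higher and 3 a lower level by the unadjusted test (11.9% and 11.7% of all tested genes), with a median log2 fold change of 0.14. By limma 2 of them rose at an adjusted p under 0.05, as 1.73% of all tested genes did. F3, tissue factor, the initiator of blood coagulation, went from 53.07, 68.85 and 68.77 FPKM in shNC to 124.35, 131.84 and 118.11 FPKM in shPQBP1 (log2 fold change 0.98, SE 0.12, adjusted p = 0.0187). CCDC80, a secreted matrix protein, went from 29.86, 31.89 and 29.89 FPKM to 52.31, 52.24 and 48.80 FPKM (log2 fold change 0.74, SE 0.07, adjusted p = 0.00941). Both were higher in all 3 shPQBP1 samples, and their adjusted p ran up to 0.146 over the alternatives. Neither passed without shNC replicate 3 (0.0597 for F3 and 0.0521 for CCDC80) or without any 1 of the shPQBP1 samples (0.0853 to 0.0889 for F3 and 0.0603 to 0.0647 for CCDC80). CCDC80 was also lost with the GC and length correction (log2 fold change 0.50, adjusted p = 0.0541). NT5E, the ectonucleotidase CD73, had a log2 fold change of 0.59 (SE 0.11, adjusted p = 0.0513).

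The lower targets were few and did not pass the adjusted threshold. AXL, a receptor tyrosine kinase, was measured at 155.26, 136.67 and 140.69 FPKM in shNC and at 114.61, 124.31 and 116.91 FPKM in shPQBP1 (log2 fold change -0.28, SE 0.08, limma adjusted p = 0.106). ARHGEF17, a guanine nucleotide exchange factor, had a log2 fold change of -0.57 (SE 0.13, adjusted p = 0.0739) and TGFB2, a TGF-beta ligand, one of -0.78 (SE 0.26, adjusted p = 0.147) at a level of 0.66 to 1.83 FPKM. All 3 were lower in every shPQBP1 sample. With the composition trend removed, 3 targets (F3, NT5E and MYOF, a membrane repair protein) were higher and 3 (AXL, ARHGEF17 and TGFB2) lower at an adjusted p under 0.05, against 4.30% and 4.54% of all tested genes. With a block for the replicate number added to that correction, 0 targets passed in either direction, and 19 of all 11385 tested genes did. Limma adjusted p was then 0.0758 for F3, 0.111 for NT5E, 0.154 for AXL, 0.172 for ARHGEF17 and 0.14 for TGFB2. Of 12 of these other YAP/TAZ targets with a promoter window, 5 held the TEAD motif. By window it was 5 of 13, against 14.0% of all windows. The windows of F3, CCDC80 and NT5E did not hold it.

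**Figure D3:**
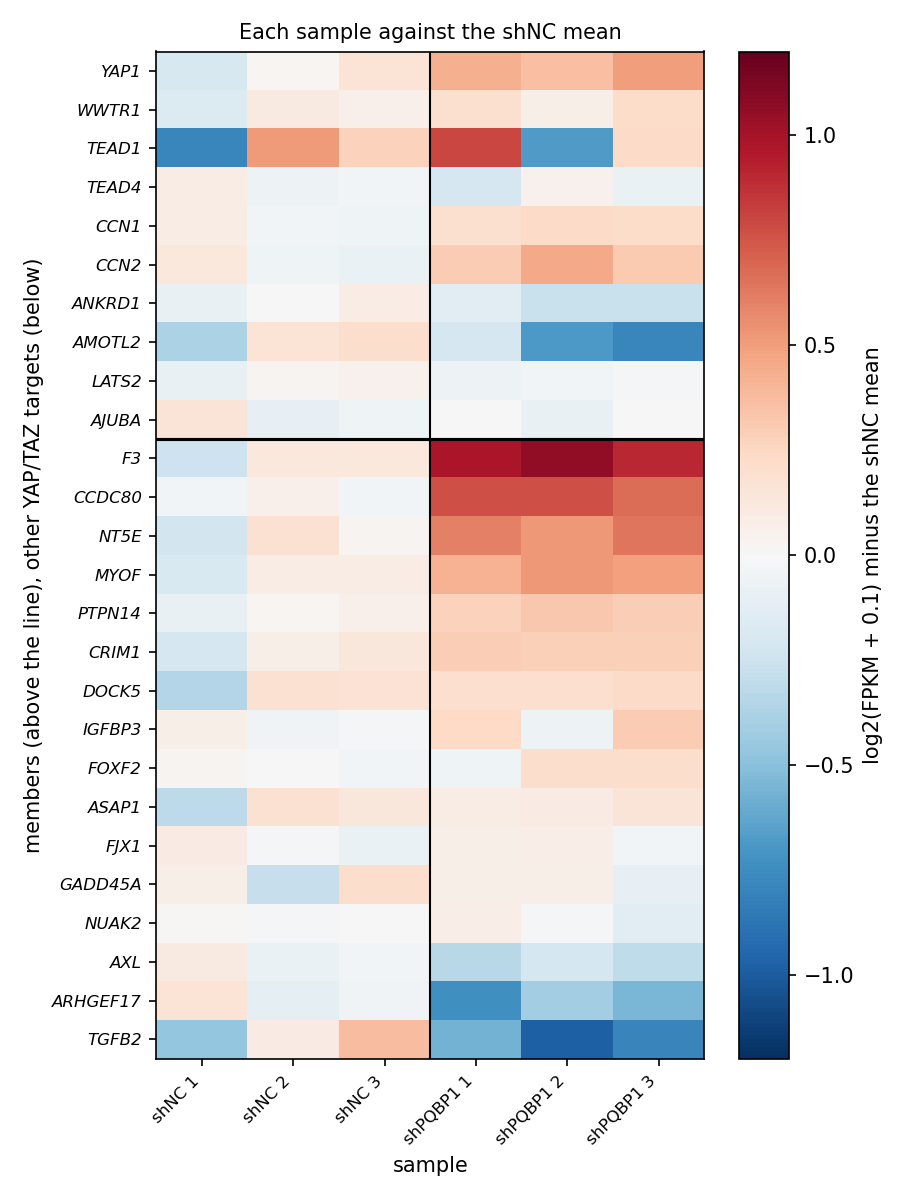
Log2(FPKM + 0.1) of each member (above the line) and of each tested other YAP/TAZ target (below it) in each sample, as the difference from the shNC mean of that gene (colour scale from blue, lower, to red, higher). F3 and CCDC80 are red in all 3 shPQBP1 samples, AXL, ARHGEF17 and TGFB2 are blue in all 3, and TEAD1 changes colour within both groups.

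The CCN family, secreted cysteine-rich proteins, had 3 of 6 genes above the filter of a mean of 1 FPKM. CCN3 (NOV) was measured at 10.34, 10.62 and 11.45 FPKM in shNC and at 13.63, 14.67 and 13.83 FPKM in shPQBP1 (log2 fold change 0.38, SE 0.08, limma adjusted p = 0.0621). CCN1, CCN2 and CCN3 were thus all higher in every shPQBP1 sample, as 17.3% of all tested genes were, with a median log2 fold change of 0.36. None passed the adjusted threshold as deposited, which 2.91% of all tested genes passed. With the GC and length correction all 3 passed, where 4.30% of all tested genes did with a higher level. With the replicate block added to that correction none did (limma adjusted p 0.102 to 0.141). CCN4, CCN5 and CCN6 were at or near 0 in all samples.

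Upstream, 17 of 17 kinases and scaffolds of the Hippo core were tested, with a median log2 fold change of 0.09. By the unadjusted test 2 had a higher level, about the share among all tested genes (11.9%), and 0 a lower one (11.7%). MAP4K4, a kinase that acts on LATS beside MST1/2, rose from 34.56, 35.46 and 35.55 FPKM to 48.03, 51.07 and 47.75 FPKM (log2 fold change 0.47, SE 0.07, limma adjusted p = 0.0238, up to 0.215 over the alternatives). Leaving out shNC replicate 1 kept that call, and leaving out any other sample lost it (0.0753 to 0.116). PTPN14, a phosphatase that binds YAP1 and is also counted among the targets, had a log2 fold change of 0.30 (SE 0.08, adjusted p = 0.103). The MST kinases themselves did not pass: STK3 had a log2 fold change of 0.09 (SE 0.13) and STK4 of -0.11 (SE 0.09). LATS1, the paralog of LATS2, was at 2.79 FPKM in shNC replicate 1 and at 4.18 to 5.13 in the other samples. It was therefore far below LATS2 in every sample.

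Of 6 angiomotins and LIM proteins, 4 were tested, and AMOTL1 differed from AMOTL2 in direction. AMOTL1, also an angiomotin, was measured at 7.35, 7.07 and 7.19 FPKM in shNC and at 8.23, 8.92 and 8.65 FPKM in shPQBP1 (log2 fold change 0.25, SE 0.07, limma adjusted p = 0.124). AMOT was under 1 FPKM in all samples. Among TEADs and their VGLL cofactors, 6 of 8 were tested, with a median log2 fold change of 0.00. By limma 0 passed an unadjusted p of 0.05 in either direction, which 23.6% of all tested genes passed. By adjusted p it was 0 as well, against 2.91%. A count of 0 of 6 is too small a basis to set this list apart from all tested genes.

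The wider Hippo pathway, by the KEGG annotation in the deposited table, held 143 genes besides the members, and 84 of them were tested. By the unadjusted test 12 had a higher and 12 a lower level, close to the shares over all tested genes (11.9% and 11.7%), and the median log2 fold change was -0.02. By limma 3 passed an adjusted p of 0.05, again close to the 2.91% of all tested genes, and 13 (7 higher, 6 lower) passed with the GC and length correction, where 8.84% of all tested genes did. FZD8, a Wnt receptor, rose from 9.70, 7.40 and 7.82 FPKM to 13.95, 15.61 and 14.09 FPKM (log2 fold change 0.81, SE 0.12, adjusted p = 0.0292). TGFBR2, a TGF-beta receptor, rose from 67.42, 69.46 and 68.63 FPKM to 86.43, 94.15 and 93.20 FPKM (log2 fold change 0.41, SE 0.07, adjusted p = 0.0328). SMAD7, an inhibitor of TGF-beta signalling, fell from 4.09, 3.59 and 3.76 FPKM to 2.50, 2.63 and 2.45 FPKM (log2 fold change -0.57, SE 0.09, adjusted p = 0.0345). Over the alternatives the adjusted p of these 3 genes ran up to 0.195, 0.227 and 0.228, and each call was lost when any 1 sample other than shNC replicate 1 was left out (0.0812 to 0.124, 0.0877 to 0.151 and 0.0819 to 0.158). Of the other genes of this list with a p under 0.05, the largest differences in each direction were those of the polarity scaffold DLG1 (log2 fold change 0.83), the integrin gene ITGB2 (0.60), TGFB2 (-0.78) and YWHAE, a 14-3-3 protein that binds phosphorylated YAP1 (-0.46). Their adjusted p was 0.111, 0.0657, 0.147 and 0.078 as deposited and 0.02, 0.018, 0.0336 and 0.0558 with the GC and length correction. With the replicate block added to that correction it was 0.117, 0.0926, 0.14 and 0.178. Under that setting 0 of the 84 genes passed, and 19 of all 11385 tested genes did.

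**Figure D4:**
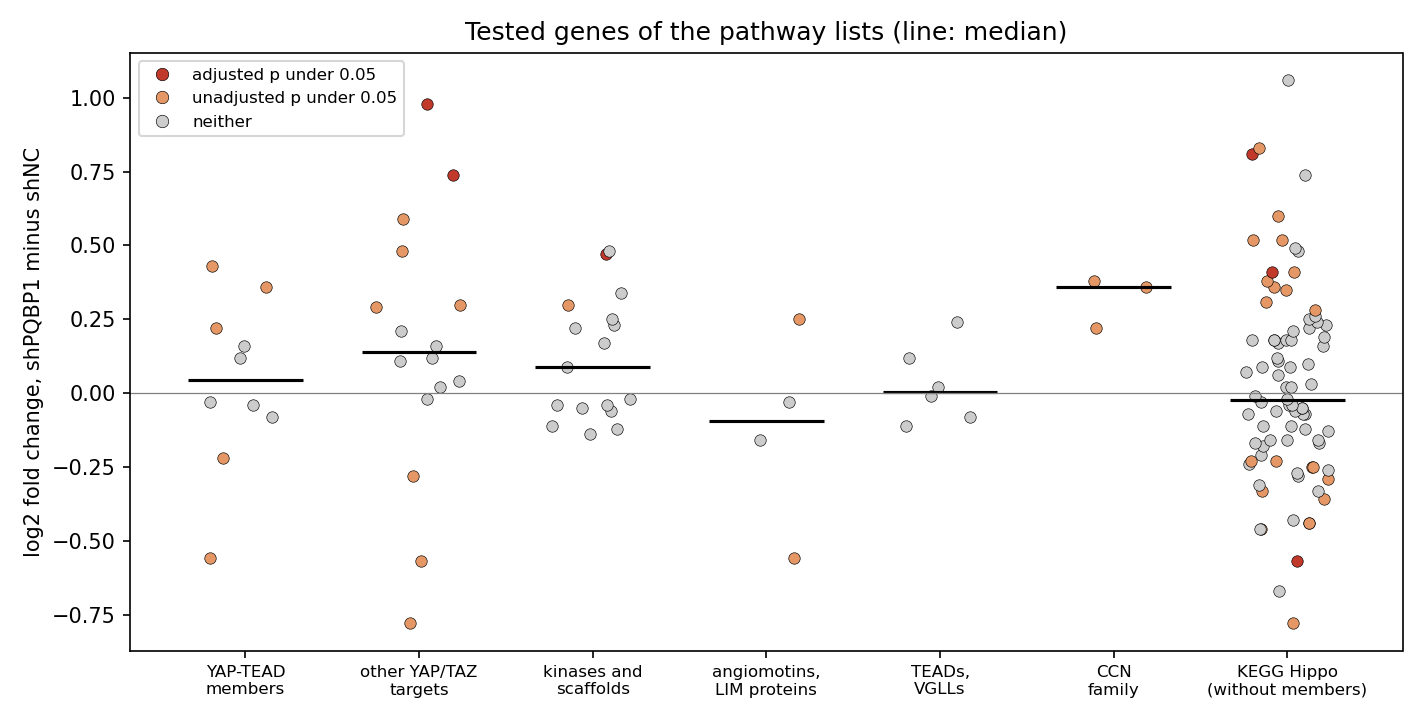
Log2 fold change (shPQBP1 minus shNC, vertical axis) of each tested gene of the 10 members and of the 6 lists around them, coloured by limma's p and with the median of each list as a line (some genes are in more than 1 list). The members lie on both sides of 0, and the 6 genes drawn in dark red are F3, CCDC80, MAP4K4, FZD8, TGFBR2 and SMAD7.

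Some genes followed the members closely across the 6 samples, given as Pearson's r of log2(FPKM + 0.1) and as a description only, since these points share the difference between the groups. ZNF799 (0.999), DSC3 (0.996) and RAD23B (0.996) were most like YAP1. TM4SF1 (0.997), SHANK1 (0.996) and DLGAP1-AS1 (0.995) were most like CCN1. G0S2 (0.997), SMIM3 (0.997) and NANS (0.995) were most like CCN2. DNAJB11 (0.990), LY6G5B (0.986) and AL627309 (0.986) were most like ANKRD1. With so few samples such values are frequent: 274 tested genes had an r over 0.95 with YAP1, 183 with CCN1, 148 with CCN2 and 22 with ANKRD1.

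The libraries were checked once for identity. FPKM sums ran from 294970 to 318484 in shNC and from 278286 to 287423 in shPQBP1, lower in all 3. Genes listed at 0 made up 26.5% to 29.8% in shNC and 27.3% to 27.8% in shPQBP1. Of the 9 epithelial and ovarian carcinoma markers, KRT7, KRT8 and KRT18 were above 50 FPKM in all samples and PAX8 was at 12.33 to 24.08 FPKM, while MUC16 and CDH1 were at or near 0. That list summed to 208 to 245 FPKM in shNC and 220 to 245 in shPQBP1. Mesenchymal markers summed to 1140 to 1260 and 1300 to 1380 FPKM, nearly all from VIM, with COL1A2 and THY1 near 0. The 2 leukocyte markers analysed summed to 9.12 to 15.6 and 12.1 to 21.2 FPKM, all from CD68, with PTPRC at 0 in all samples. Endothelial markers summed to 2.35 to 3.19 and 3.12 to 3.7 FPKM, mainly from CDH5. Fewer cells of a kind and less RNA per cell cannot be told apart in such bulk samples. VIM, PAX8, KRT19 and CDH5 were higher in all 3 shPQBP1 samples, as 17.3% of all tested genes were. WT1, COL1A1, PDGFRB and PECAM1, all under 1 FPKM and so not tested, were lower in all 3. Of the tested genes, 17.1% were lower in all 3. The part of these markers in the values above was not tested.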

How the data were processed

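Poly(A) RNA of 6 HEY samples (3 shNC, 3 shPQBP1) was sequenced in pairs. The authors mapped reads to hg38 with HISAT2 2.2.0, sorted them with SAMtools 1.9, assembled them with StringTie 1.3.0 and deposited FPKM per gene, rounded to 2 decimals. The FPKM values keep no read counts, so depth is unknown and no counting interval is given. The labels call the samples biological triplicates. The deposited fold changes and p-values of the authors' edgeR comparison were not used. Testing covered the 11413 genes whose FPKM averaged 1 or more, on log2(FPKM + 0.1) with limma 3.58.1 (R 4.3.3, eBayes with trend, two-sided, Benjamini-Hochberg over all tested genes), and the fit was tested on simulated data. A fold change on this scale understates that of low genes. Single values were compared by exact permutation tests over 6 samples (smallest p = 0.1). GC content and length came from canonical transcripts of GENCODE 44, and positions are on hg38. Members and lists were chosen with earlier results of these data known. Named were all members, PQBP1, list genes at an adjusted p under 0.05 and, per list, the 3 with the largest rise and fall at an unadjusted p under 0.05, and the 3 genes most like YAP1, CCN1, CCN2 and ANKRD1. STK3, STK4, LATS1, AMOT, MYOF and the marker genes, outside that rule, were picked after their values were seen. Alternatives changed the scaling, filter, pseudocount, variance trend, composition, replicate block and samples.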

Additional observations from a re-analysis of the deposited data

How the results depend on the processing

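No member passed an adjusted p of 0.05 as deposited. By setting, 2 members passed with quantile normalization, CCN1 and CCN2 (limma adjusted p = 0.0245 and 0.0295), where 416 of all 11413 tested genes passed. The GC and length correction gave 4 members. Leaving out 1 sample gave 0 to 2, the 2 being CCN1 and CCN2 without shNC replicate 1. Over all tested genes the count was 332 as deposited, 190 with every gene above 0 in a sample, 211 of 3661 at a mean FPKM of at least 10, 1006 with the GC and length correction and 30 to 464 with 1 sample left out, for causes that were not tested. The 5 members at an unadjusted p under 0.05 became 3 to 5 with 1 sample left out: ANKRD1 and AMOTL2 were lost without shNC replicate 2 or 3 or shPQBP1 replicate 2 or 3. Of all 11413 tested genes, 870 to 1629 were higher and 866 to 1311 lower by that test with 1 sample left out. Same-numbered samples did not deviate together (correlations -0.186, -0.138 and -0.011), so the numbers are not taken as pairs. With the replicate block 2 members (YAP1 and CCN2) had an unadjusted p under 0.05, and 0 genes had an adjusted p under 0.05 by limma (PQBP1 0.0686), with 968 higher and 872 lower unadjusted, against 19 adjusted calls with the block and the GC and length correction together. Under the latter 0 members passed, YAP1, CCN1, CCN2 and ANKRD1 having adjusted p of 0.102 to 0.134. The members' median was -0.032 at a mean FPKM of at least 10, where TEAD1 was not tested. With the GC and length correction, with or without the block, the log2 fold changes of WWTR1, TEAD1 and TEAD4 turned to -0.01, -0.07 and 0.08. The log2 ratio of TEAD1 to TEAD4, run with the correction alone, turned to -0.16. With 1 sample left out, TEAD1 ran from -0.27 to 0.52, AJUBA from -0.08 to 0.04 and the log2 ratio of TEAD1 to TEAD4 from -0.25 to 0.67. 3 against 3 samples and an unknown depth limit what small differences can be seen.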
